A study of Danio rerio with 20 samples.

Results

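The genes described here are the apoptosis regulators and caspases of the zebrafish (Danio rerio) liver. They were taken by name, as every gene whose single platform symbol starts with 1 of 19 stems of the BCL-2, caspase, inhibitor-of-apoptosis, death receptor, pdcd and gadd45 families. The rule picked 33 probes for 28 genes, out of 15780 features in all, and the rule uses no measured value. No probe of a single symbol began with the other 7 stems (bok, bid, birc3, birc4, birc7, fadd and aifm), so no gene was analysed under those names. Of the genes, 5 had 2 probes each (baxa, badb, bcl2l1, bcl2l13 and caspb), and 23 had 1 probe.

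The study compared 10 arrays of liver tumor with 10 arrays of normal liver. Per the labels, the tumors had been induced by carcinogens, and all fish were kept at 27 °C. No source used here gives their strain, age or sex, the carcinogen, the tumor type or how the tissue was dissected. Each array carried 1 liver sample in Cy5 and normal liver RNA in Cy3 as a common reference. Values are log2 ratios, likely of liver sample over reference, and the opposite direction would turn every sign. A difference is the tumor mean minus the normal mean, in log2 units, with its standard error (SE, n = 10 tumor and 10 normal arrays). It was tested with limma, a linear model across all features; p-values were adjusted by Benjamini-Hochberg over all 15780 of them, and 0.05 was the threshold. In bulk tissue, fewer cells of a type and less RNA per cell cannot be told apart.

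In the mitochondrial route to apoptosis, Bax-type proteins open the outer mitochondrial membrane, and BCL-2-like survival proteins hold them back. Cytochrome c released in this way assembles with Apaf1 and activates caspases, while Diablo, released at the same time, relieves the block that inhibitor-of-apoptosis proteins such as Xiap place on caspases. In the death receptor route, ligands of the tumor necrosis factor family act through receptors and adaptors on caspase 8. Mammalian hepatocytes are known to link both routes through cleavage of Bid.

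The arrays differed in more than the tissue. The share of dim spots, estimated from ratios of small whole numbers among the values, averaged 1.97% on tumor arrays and 5.86% on normal arrays. Tumor replicate 9 stood apart from the other tumors in this, with 7.16%, and with tumor replicate 10, at 3.38%, it was among the values of normal livers (2.55% to 7.87%). Of 8 measured hepatocyte markers, 5 fell in tumors, beside 4.94% of all features, and 0 rose, beside 5.91%. Their mean log2 ratio lay between -3.59 and -1.01 on tumor arrays and between -0.51 and 0.56 on normal arrays. The marker lists were chosen with earlier results of these data known, so such counts are a description and not a test. Ovary and oocyte markers had their highest mean on tumor replicate 10 among the tumors (1.36) and on normal replicate 8 among the normal livers (1.66). The lowest such means were -1.68 on tumor and -2.67 on normal arrays. Of 10 such markers 2 rose and 1 fell, and 6 had an unadjusted p under 0.05 with limma in either direction, beside 26.1% of all features. Their median difference was 1.45 with those 2 arrays included, and the markers were not tested without them. For org, zpcx, ccnb1, cldnd and zar1, all 10 tumor arrays lay above the normal median. Tumor arrays above it numbered 9 for zp3 and zp3b, 7 for ddx4, 2 for fbxo5 and 0 for nanos3. The standard deviation over all probes ran from 0.494 to 1.22 on tumor arrays, where replicate 10 was the widest, and from 0.497 to 0.973 on normal arrays.

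Of the 28 genes, 3 passed the threshold. The mitochondrial caspase activator diabloa fell, and the pore-forming baxa and the endosomal protein gene pdcd6ip rose. These 3 genes are 10.7% of the members, beside 10.8% of all features, so the count is near the background. Where other settings called more members, they called more features too. After centring and scaling it was 5 members (17.9%) beside 17.3% of features, after quantile normalization 5 (17.9%) beside 16.1%, and with array weights 7 (25%) beside 21.5%. Without normal replicate 8 and tumor replicate 10 it was 5 (17.9%) beside 11.8%. The 2 that rose are 7.14% of the members, beside 5.91% of all features, and the 1 that fell is 3.57%, beside 4.94%. At an unadjusted p under 0.05, 9 members (32.1%) and 26.1% of all features passed. The median difference was 0.113 over the members and -0.00861 over all features, and 19 members (67.9%) had a higher mean in tumors, beside 49.1% of all features. The members' median was 0.067 without tumor replicate 1, 0.049 without tumor replicates 1 and 10 and 0.026 with array weights. Among the 25 members that did not pass, differences ran from -0.67 (caspa) to 0.77 (mcl1b). The 95% interval spanned 0 for 19 of the 25 and lay to 1 side of 0 for 6.

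**Figure D1:**
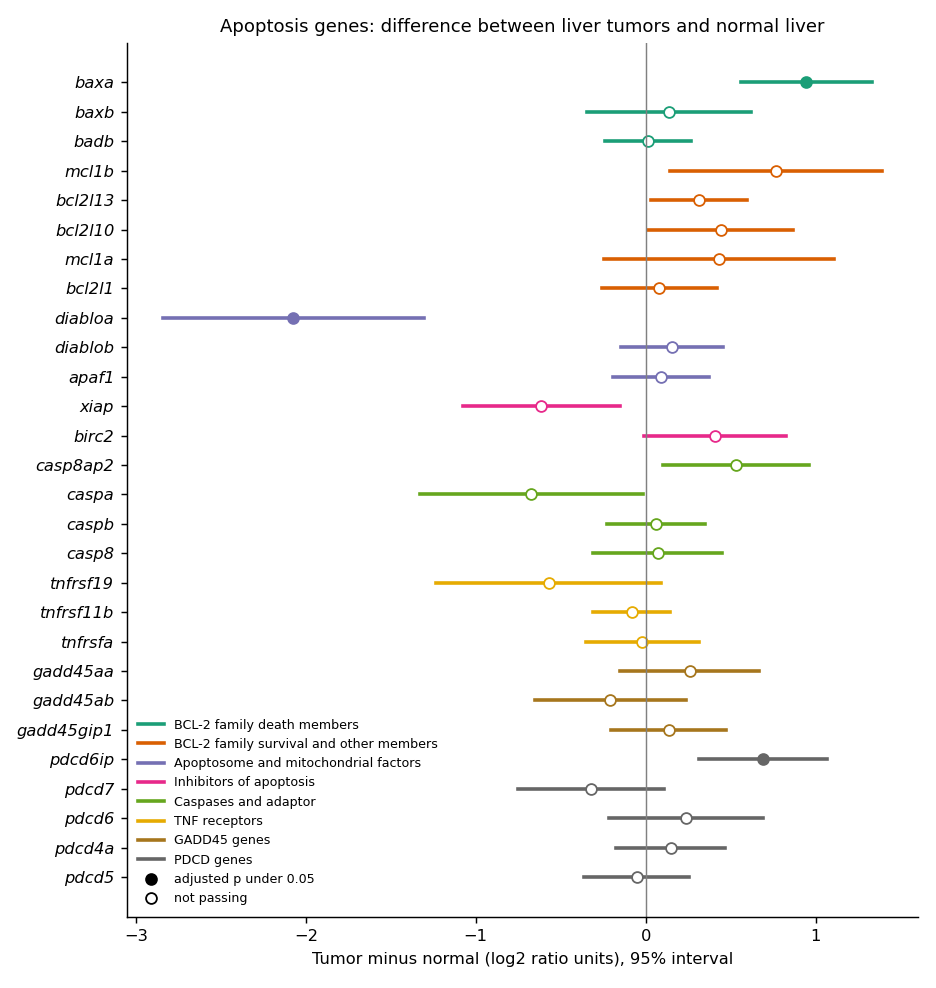
Difference between tumor and normal arrays (log2 ratio units, horizontal axis) for each of the 28 genes, with its 95% interval (n = 10 arrays per group), coloured by role. Filled points mark the 3 genes with an adjusted p under 0.05, diabloa at -2.07, baxa at 0.95 and pdcd6ip at 0.69, and open points mark the other 25.

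Among the BCL-2 family members that promote death, baxa rose and neither baxb nor badb passed. Baxa encodes Bax, which forms the pore in the outer mitochondrial membrane. Averaged over its probes, baxa ran from -0.91 to 0.90 on tumor arrays (median -0.05) and from -1.67 to -0.49 on normal arrays (median -0.99). On the tumor side, 9 of 10 arrays lay above every normal array, and tumor replicate 9, at -0.91, lay inside the normal range. The difference was 0.95 ± 0.19 (SE), or 1.93-fold higher in tumors (adjusted p = 0.00251 with limma). The tumor mean was -0.04 ± 0.47 and the normal mean -0.99 ± 0.36 (SD, n = 10 each), so the tumor arrays, not the normal ones, were centred near the reference.

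Each baxa probe passed when every probe was tested alone. Probe 5270697 ran from -0.80 to 0.87 on tumor arrays (median -0.08) and from -1.98 to -0.52 on normal arrays (median -1.19). Its difference was 1.11 ± 0.18 (adjusted p = 0.000608), and 9 tumor arrays lay above all normal ones. Probe 5270822 ran from -1.02 to 0.93 on tumor arrays (median 0.04) and from -1.45 to -0.09 on normal arrays (median -0.76). Its difference was 0.79 ± 0.21 (adjusted p = 0.018), and 7 tumor arrays lay above all normal ones. Both probes had their highest value on tumor replicate 1. The gap between the probes was -0.08 on average in tumors and -0.40 in normal livers, and the change in that gap, 0.32, did not pass (permutation p = 0.0309, adjusted p = 0.0698 over 10 comparisons). Both probes measure 1 gene on the same arrays and are not separate evidence.

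Baxb, the other zebrafish Bax gene, had a difference of 0.14 ± 0.23 (95% interval -0.34 to 0.62, adjusted p = 0.745). It stood at 1.87 on tumor replicate 1 and 1.42 on tumor replicate 10, and between -0.09 and 0.65 on the other tumor arrays; normal arrays ran from -0.12 to 0.98. Baxa minus baxb averaged -0.43 ± 0.69 in tumors and -1.24 ± 0.43 in normal livers (SD, n = 10 each). This contrast between the Bax genes differed between the groups by 0.81 (two-sided permutation p = 0.00822, adjusted p = 0.0274 over 10 comparisons). It was added after values had been seen and contains the baxa difference, so it is not separate evidence for that difference. With dim spots in the model the differences of baxa and baxb were close to each other, at 0.59 and 0.51, and neither passed. Badb encodes Bad, a BH3-only protein that binds survival members of the family. Its difference was 0.02 ± 0.12, with a 95% interval from -0.24 to 0.27, and its probes gave 0.03 and -0.0021.

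None of the 5 survival and other BCL-2 family genes passed. Their differences ran from 0.08 to 0.77 with a median of 0.43, and with dim spots in the model mcl1b and bcl2l1 were below 0. Mcl1b, a zebrafish counterpart of the short-lived survival protein Mcl1, ran from -2.14 to 0.15 on tumor arrays (median -0.44) and from -2.65 to -0.52 on normal arrays (median -1.44). In 5 tumor arrays it lay above all normal arrays, while tumor replicate 9 was the lowest tumor. The difference was 0.77 ± 0.30 (adjusted p = 0.105), and without tumor replicate 9 it was 0.93 and passed (adjusted p = 0.0285). That was the only passing run when arrays were left out 1 at a time (adjusted p up to 0.182). Mcl1b also passed after centring and scaling (0.78, adjusted p = 0.0415), after quantile normalization (0.71, adjusted p = 0.0341) and with array weights (1.02, adjusted p = 0.00563). Leaving out tumor replicate 10 together with normal replicate 8 gave 0.95, which passed (adjusted p = 0.0472). Mcl1b did not pass in the rank-sum test (adjusted p = 0.148), after centring alone (0.80, adjusted p = 0.0915) or with the replicate block (adjusted p = 0.0914). Without tumor replicates 1 and 10 it did not pass either (0.95, adjusted p = 0.0549). Once the share of dim spots entered the model the difference was -0.21 (adjusted p = 0.848). Mcl1a, the other Mcl1 gene, had a difference of 0.43 ± 0.33 (adjusted p = 0.418; 0.89 with array weights, adjusted p = 0.0237) and the widest spread of the family on normal arrays (SD 0.875, from -0.89 to 1.79). Mcl1a minus mcl1b did not differ between the groups past the threshold (-0.34, permutation p = 0.295, adjusted p = 0.422).

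Bcl2l1 encodes Bcl-xL, the survival protein on which mouse hepatocytes are known to depend. Its difference was 0.08 ± 0.16, with a 95% interval from -0.26 to 0.42. Tumor replicate 10 was its lowest tumor array at -0.80. Bcl2l10, whose mammalian counterpart is known from oocytes, had a difference of 0.44 ± 0.21 (adjusted p = 0.178). Its highest tumor value was on tumor replicate 10 (1.1) and its highest normal value on normal replicate 8 (0.08), the arrays with the highest ovary marker means. Without both of these arrays the difference was 0.38 (adjusted p = 0.185). The part of ovary RNA in the bcl2l10 values was not tested.

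Bcl2l13, a mitochondrial member with a known role in mitophagy, had probes of opposite sign. Probe 5283559 ran from -0.06 to 2.30 on tumor arrays (median 0.43) and from -1.64 to 0.59 on normal arrays (median -0.28). Alone, it passed at 0.92 ± 0.27 (adjusted p = 0.029). Probe 5274605 ran from -1.44 to -0.01 on tumor arrays (median -0.47) and from -0.80 to 0.29 on normal arrays (median -0.12), with a difference of -0.29 ± 0.17 (adjusted p = 0.279). On tumor replicate 1 the first probe was at its highest and the second at its lowest. Probe 5274605 minus probe 5283559 averaged -1.04 ± 1.08 in tumors and 0.18 ± 0.63 in normal livers (SD, n = 10 each; difference -1.22, permutation p = 0.00244, adjusted p = 0.0122 over 10 comparisons). The average of the probes had a difference of 0.31 ± 0.14 (adjusted p = 0.144). The probe pairs of badb, bcl2l1 and caspb did not differ in this way (differences of -0.04, 0.03 and 0.04, adjusted p = 0.919 each).

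**Figure D2:**
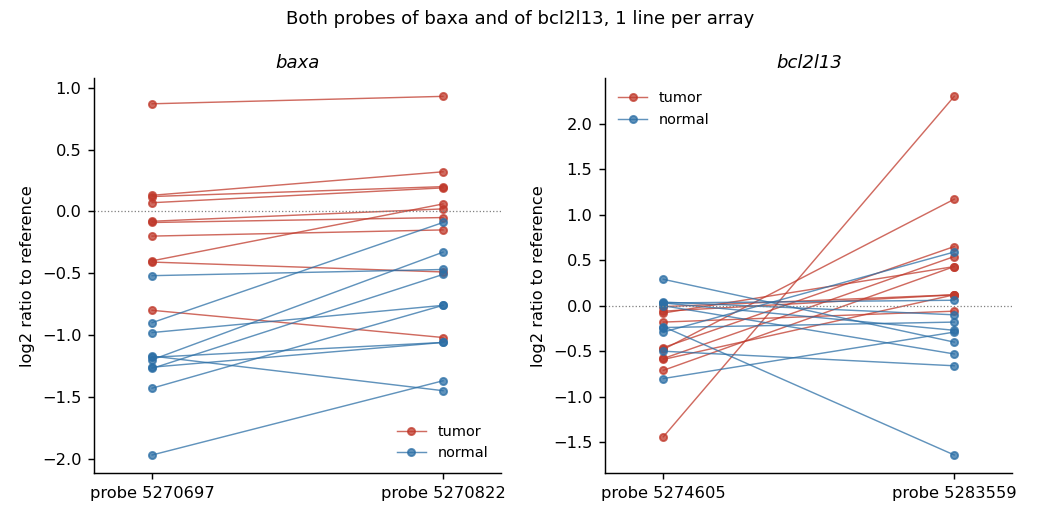
Log2 ratio to the reference (vertical axis) at both probes of baxa (left) and of bcl2l13 (right), with 1 line per array, tumor in red and normal in blue. Most tumor lines of baxa lie above the normal lines at both probes, and most normal lines climb towards probe 5270822, while the bcl2l13 tumor lines climb from probe 5274605 (median -0.47) to probe 5283559 (median 0.43).

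Of the 3 genes acting downstream of the mitochondrial pore, diabloa fell and neither diablob nor apaf1 passed. Diabloa encodes Diablo (Smac), which binds inhibitor-of-apoptosis proteins once it leaves the mitochondrion. It ran from -4.86 to -1.12 on tumor arrays (median -2.79) and from -1.72 to 0.02 on normal arrays (median -0.41). In 9 tumor arrays it lay below every normal array, and only tumor replicate 3, at -1.12, lay in the normal range. The difference was -2.07 ± 0.37, so that normal liver stood 4.21-fold above tumor (adjusted p = 0.00127 with limma). By size, this was number 106 among the 15780 features. The normal livers fell into 4 arrays between -1.72 and -1.38 and 6 arrays between -0.43 and 0.02.

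Diablob, the other zebrafish Diablo gene, ran from -0.23 to 0.89 on tumor arrays (median 0.22) and from -0.31 to 0.48 on normal arrays (median 0.05). Its difference was 0.15 ± 0.14, with a 95% interval from -0.15 to 0.45. Diabloa minus diablob averaged -3.06 ± 1.31 in tumors and -0.83 ± 0.59 in normal livers (SD, n = 10 each). That contrast differed between the groups by -2.23 (two-sided permutation p = 0.0001, adjusted p = 0.001 over 10 comparisons). It was added after values had been seen and contains the diabloa difference, so it is not separate evidence for that difference. Tumor replicate 10 had the lowest diabloa and the highest diablob of the tumors. Apaf1, the scaffold of the apoptosome, had a difference of 0.09 ± 0.14 (95% interval -0.19 to 0.37), and its arrays all lay between -0.55 and 0.38.

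**Figure D3:**
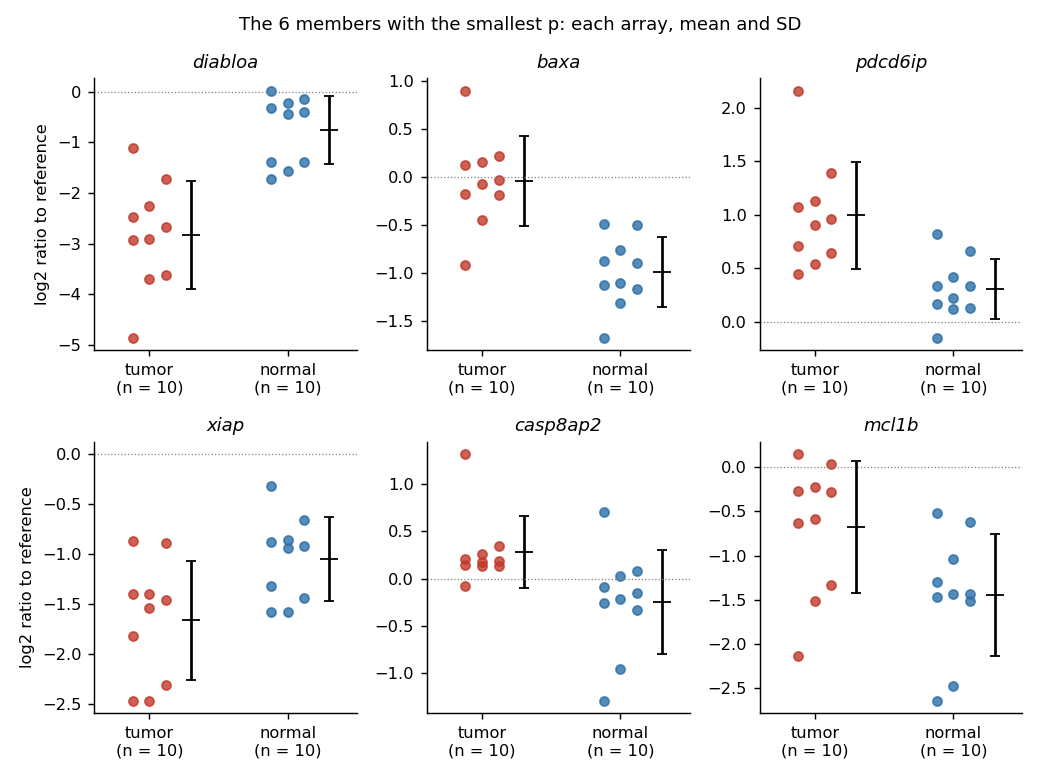
Log2 ratio to the reference on each array for the 6 members with the smallest p, tumor on the left of each panel and normal on the right (n = 10 each), with mean and SD in black and a dotted line at the reference. For diabloa, baxa and pdcd6ip, 9, 9 and 6 of the tumor points lie beyond all normal points, while xiap, casp8ap2 and mcl1b overlap more and did not pass.

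The inhibitor-of-apoptosis genes did not pass. Xiap, whose product blocks caspases directly, ran from -2.47 to -0.87 on tumor arrays (median -1.50) and from -1.58 to -0.32 on normal arrays (median -0.93). In 4 tumor arrays it lay below all normal arrays. The difference was -0.61 ± 0.22 (adjusted p = 0.0775), and xiap passed when arrays were scaled to a common spread (-0.97, adjusted p = 0.0322) or quantile normalized (-0.78, adjusted p = 0.0441). It also passed without tumor replicate 4 (-0.70, adjusted p = 0.0437) and, at the edge of the threshold, without tumor replicate 6 (-0.70, adjusted p = 0.04998). When arrays were left out 1 at a time, only those 2 runs passed (adjusted p up to 0.141). Xiap did not pass in the rank-sum test (adjusted p = 0.168) or with array weights (-0.50, adjusted p = 0.144). With dim spots in the model it did not pass either (-0.73, adjusted p = 0.417). Birc2, a ubiquitin ligase that acts at death receptors, had a difference of 0.41 ± 0.20 (adjusted p = 0.2). Its 3 highest tumor arrays, replicates 2, 10 and 1, stood at 1.33, 1.19 and 1.03, above all normal arrays.

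None of the caspase genes passed in the comparison as deposited. Casp8, the caspase recruited by death receptors, had a difference of 0.07 ± 0.18, with a 95% interval from -0.31 to 0.45, and without tumor replicate 10, its highest tumor array, it was -0.03. Caspa and caspb are zebrafish caspases known from inflammasomes and inflammatory cell death. Caspa ran from -0.19 to 1.43 on tumor arrays (median -0.01) and from -0.38 to 2.33 on normal arrays (median 0.92). On 8 tumor arrays it lay between -0.19 and 0.25, with replicates 9 and 10 at 1.05 and 1.43. Its difference was -0.67 ± 0.32 (adjusted p = 0.181), with array weights it was -0.88 and passed (adjusted p = 0.0168), and with dim spots in the model it was 0.15 (adjusted p = 0.921). Caspb differed by 0.06 ± 0.14, and the contrast of caspa with caspb did not pass (-0.74, permutation p = 0.0349, adjusted p = 0.0698).

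Casp8ap2 encodes FLASH, a caspase 8 binding protein that also serves in histone mRNA processing. It ran from -0.08 to 1.32 on tumor arrays (median 0.19) and from -1.30 to 0.71 on normal arrays (median -0.19). All 10 tumor arrays lay above the normal median, and 9 of them lay between -0.08 and 0.35. The highest value of each group was on tumor replicate 10 (1.32) and normal replicate 8 (0.71), as for bcl2l10. The difference was 0.53 ± 0.21 (adjusted p = 0.101). Without both of these arrays it was 0.52 and passed (adjusted p = 0.042), as it did without normal replicate 8 alone (0.64, adjusted p = 0.0336). That was the only passing run when arrays were left out 1 at a time (differences from 0.42 to 0.64). Casp8ap2 also passed a rank-sum test (adjusted p = 0.0249). It did not pass with array weights (0.26, adjusted p = 0.132) or with dim spots in the model (0.37, adjusted p = 0.691). Without tumor replicates 1 and 10 it did not pass either (0.42, adjusted p = 0.18).

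The TNF receptor genes did not pass, with differences from -0.57 to -0.02 in which tnfrsfa turned to 0.010 after centring of arrays and tnfrsf11b to 0.10 with dim spots in the model. Tnfrsf19, a receptor also known as Troy, had a difference of -0.57 ± 0.32 (adjusted p = 0.264). Normal replicate 10 stood at 3.15, and the other normal arrays lay between -0.11 and 0.92. Without normal replicate 10 the difference was -0.28, and with array weights it was -0.83 and passed (adjusted p = 0.0356). With dim spots in the model it was -0.13 (adjusted p = 0.941). Tnfrsf11b encodes osteoprotegerin, a soluble decoy receptor, and differed by -0.08 ± 0.11. Tnfrsfa differed by -0.02 ± 0.16 (95% interval -0.35 to 0.31), and every tumor array lay below the reference, between -0.97 and -0.04. Normal arrays ran from -1.19 to 0.04, and their mean lay below the reference too (-0.40, beside -0.41 in tumors). Markers of leukocytes, which carry many receptors of this family, had means from -0.03 to 2.65 on tumor arrays and from 0.02 to 1.60 on normal arrays. Of 12 such markers 0 passed with limma, and 1 had an unadjusted p under 0.05.

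The gadd45 stems did not pass. Gadd45aa and gadd45ab, growth arrest and DNA damage genes, differed by 0.26 ± 0.20 and -0.21 ± 0.21, and the contrast between them did not pass (0.47, permutation p = 0.113, adjusted p = 0.189). Gadd45gip1, which is known as a component of the mitochondrial ribosome, differed by 0.14 ± 0.16.

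Of the 5 pdcd genes, pdcd6ip rose. It encodes Alix, a partner of the ESCRT machinery of membrane scission and of the calcium-binding protein of pdcd6. Pdcd6ip ran from 0.45 to 2.16 on tumor arrays (median 0.93) and from -0.15 to 0.82 on normal arrays (median 0.28). Its values on 6 tumor arrays lay above all normal arrays, and all 10 lay above the normal median. The difference was 0.69 ± 0.18, or 1.61-fold higher in tumors (adjusted p = 0.0174 with limma). Tumor replicate 1 was the highest at 2.16. Without tumor replicates 1 and 10 the difference was 0.56 (adjusted p = 0.0219).

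Pdcd6 itself had a difference of 0.24 ± 0.22 (95% interval -0.22 to 0.69) and lay above the reference on every tumor array, between 0.18 and 1.34. Normal arrays ran from -0.15 to 1.61, and their mean lay above the reference too (0.47, beside 0.71 in tumors). Pdcd7, a protein of the minor spliceosome, had a difference of -0.32 ± 0.21 (adjusted p = 0.332), with tumor replicate 7 at -1.61. Pdcd4a, an inhibitor of translation initiation, differed by 0.15 ± 0.15, and pdcd5 by -0.05 ± 0.15.

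**Figure D4:**
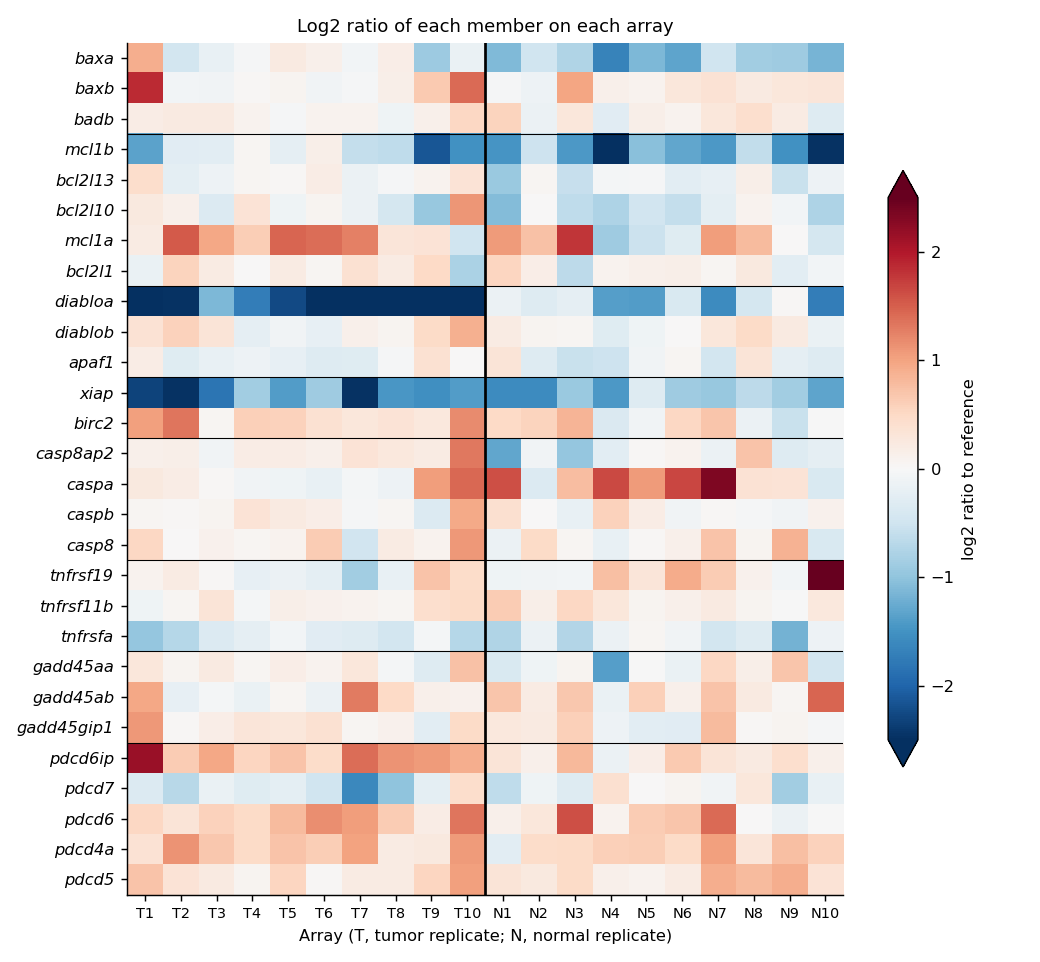
Log2 ratio to the reference of the 28 genes (rows, grouped by role) on the 20 arrays (columns, T for tumor and N for normal replicates); the colour scale is clipped at -2.5 and 2.5. Diabloa, xiap and mcl1b stand below the reference on most arrays of both groups, and tumor replicate 10 has the highest value of the tumors for 12 of the 28 genes.

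Tumor replicate 10 had the highest tumor value for 12 of the 28 genes (42.9%), beside 17.3% of all features. That array also had the highest mean of the tumors for markers of leukocytes (2.65) and of stellate cells, fibroblasts and vessels (2.48), and the part of other cell types in its member values was not tested. No member separated the groups entirely, beside 83 of all features (0.526%), so this too is near the background. The median standard deviation of a member was 0.407 over the tumor arrays and 0.387 over the normal arrays, beside 0.378 and 0.438 over all features.

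The calls were recomputed with the share of dim spots in the model, since it differed between the groups. With that share as a covariate, 54 features passed (0.342%), among them 1 member, diabloa, at -2.60 (adjusted p = 0.0304). Baxa was then at 0.59 (adjusted p = 0.39) and pdcd6ip at 0.88 (adjusted p = 0.181), where without the covariate they were at 0.95 and 0.69. The difference of pdcd6ip was thus larger with the covariate, though it did not pass. Of the tumors, only replicates 9 and 10 had dim shares among those of normal livers, so this model can hardly tell the share from the group. On the arrays themselves, baxa was lowest among the tumors on replicate 9, whose dim share was 7.16%, while diabloa stood at -3.70 there and pdcd6ip at 1.07. Tumor replicate 10, with a dim share of 3.38%, had baxa at -0.17, diabloa at -4.86 and pdcd6ip at 0.90. Normal replicates 2, 5 and 8, with dim shares of 3.90%, 3.04% and 2.55%, had baxa at -0.50, -1.12 and -0.87, and diabloa at -0.32, -1.39 and -0.43. The part of spot brightness in the baxa and mcl1b values was not tested further.

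**Figure D5:**
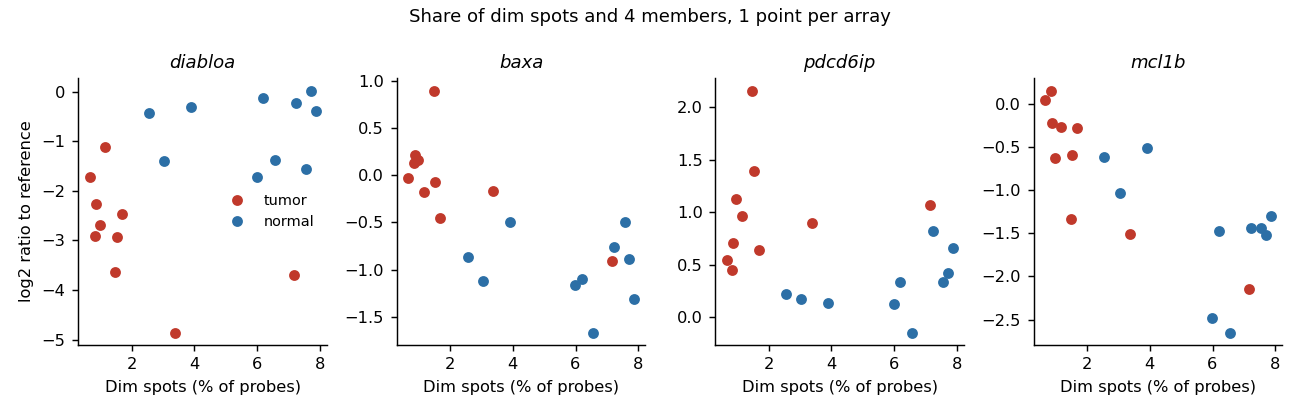
Share of dim spots of each array (% of probes, horizontal axis) against the log2 ratio of diabloa, baxa, pdcd6ip and mcl1b, with 1 point per array, tumor in red and normal in blue. Tumor replicate 9, the red point at 7.16%, lies with the tumors for diabloa (-3.70) and pdcd6ip (1.07) and with the normal arrays for baxa (-0.91) and mcl1b (-2.14).

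The reference itself gave a further comparison, in which the average of the 10 normal arrays was tested for a departure from 0. Of the 28 genes 12 differed (42.9%), beside 25% of all features, with 6 higher (21.4%, beside 11.4%) and 6 lower (21.4%, beside 13.6%). The largest were mcl1b at -1.45 ± 0.21 (SE, adjusted p = 5.6e-05 with limma), xiap at -1.05 ± 0.16 (adjusted p = 6.4e-05), baxa at -0.99 ± 0.13 (adjusted p = 2.1e-05) and caspa at 0.91 ± 0.22 (adjusted p = 0.00495). Diabloa was at -0.75 ± 0.26 (adjusted p = 0.0381). The tumor means of these genes were -0.68 for mcl1b, -1.66 for xiap, -0.04 for baxa, 0.24 for caspa and -2.83 for diabloa. Both comparisons use the same normal arrays. Liver was always in Cy5 and the reference always in Cy3, so dye effects and differences of the reference pool cannot be told apart from these values.

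Other genes of cell death, from lists of 5 kinds, had 37 measured members outside the rule. Of these 5 rose and 3 fell (21.6%, beside 10.8% of all features), and their median difference was 0.109. The lists were chosen with earlier results of these data known, so this share is a description and not a test. Only part of each list was measured, such as 8 of 26 p53 targets and cell cycle arrest genes. Among 8 p53 targets and cell cycle arrest genes 1 rose and 1 fell. Mdm2, the ubiquitin ligase that keeps p53 low and is itself induced by p53, ran from -0.39 to 0.54 on tumor arrays (median 0.04) and from -0.88 to -0.12 on normal arrays (median -0.47). Its level was above all normal arrays on 9 tumor arrays (difference 0.48 ± 0.12, adjusted p = 0.0141). Sesn1, a stress-induced sestrin, fell by 0.69 (SE 0.18, adjusted p = 0.0143). When every probe was tested alone, its lowest probe difference was -0.82 and passed (adjusted p = 0.00691). Its highest was -0.57 and did not pass (adjusted p = 0.181).

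Among 6 further BCL-2 interactors 2 mitophagy receptors with a known link to hypoxia changed, in opposite directions. Bnip3 fell by 1.12 (SE 0.29, adjusted p = 0.0143), with 8 tumor arrays below all normal arrays. Bnip3lb rose by 0.92 ± 0.23 (adjusted p = 0.0115), with 7 tumor arrays above all normal arrays. Of 7 genes of death receptor signalling 0 passed with limma, 1 had an unadjusted p under 0.05, and the smallest p belonged to cflara, an inhibitor of caspase 8 activation, at 0.45 ± 0.19 (adjusted p = 0.136).

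Among 13 genes of mitochondrial and nuclear execution 2 rose and 1 fell. The calpain gene capn2a rose by 1.24 ± 0.28 (adjusted p = 0.00675), and it was the 1 gene of these lists that also passed with dim spots in the model. The caspase substrate parp1, a DNA repair enzyme, rose by 0.79 ± 0.21 (adjusted p = 0.0181), and without tumor replicates 1 and 10 together it missed the threshold (0.61, adjusted p = 0.0519). The channel of the outer mitochondrial membrane vdac3 fell by 1.02 (SE 0.29, adjusted p = 0.0279). It missed the threshold without tumor replicate 1 or 7 (adjusted p = 0.0507 and 0.0539), in the rank-sum test (0.0523) and with the replicate block (0.0648). Without tumor replicates 1 and 10 together its difference was -0.75, which missed it too (adjusted p = 0.082). Of 3 other inhibitor-of-apoptosis genes 1 rose, the giant ubiquitin ligase gene birc6 (0.41 ± 0.13, adjusted p = 0.0403), which missed the threshold without any 1 of 12 arrays (adjusted p up to 0.0769) and with the replicate block (0.106). The survivin genes birc5a and birc5b, which also serve in cell division, had differences of 0.26 and 0.35 and did not pass.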

How the data were processed

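The authors deposited 1 table of log2 ratios, with 16512 probes and 20 arrays and 0 missing values. Per the labels, each array held a liver sample (Cy5) and normal liver reference RNA (Cy3), 20 µg of total RNA each, with no dye swap. Not given in the sources used here: background correction, spot filters, normalization and scan batches. The base of the deposited log2 values was read from the gaps between repeated values (such as 0.415 and 0.263, the log2 of 4/3 and of 6/5). Titles gave the groups: C was taken as normal and T as tumor, matching the 10 and 10 arrays of the design text. The labels do not say that arrays came from separate fish, so the p-values rest on the spread of these samples alone, part of which may be technical.

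The platform annotation named 6088 probes by 1 gene symbol and 75 by several, and left 10349 unnamed; a RefSeq gene table (GRCz12tu, names only) updated 1 symbol. Within each array, probes sharing a single symbol were averaged, which gave 15780 features. Tumor and normal arrays, and the normal mean against 0, were tested with lmFit and eBayes (limma 3.58.1, R 4.3.3). Contrasts between a and b genes (5 pairs) and between the probes of a gene (5 pairs) used two-sided permutation tests (100000 resamples, scipy 1.17.1) adjusted over the 10, and were added after values had been seen. The dim share counts values (in %) that match a log2 ratio of whole numbers no larger than 10 to within 0.00011, once 1 constant per array is removed. The tumor and normal comparison was also simulated over 15780 independent features, with 50 changed at each size. In it, 98% of changes of 2 log2 units, 70% of changes of 1, 18% of changes of 0.5 and 14% of changes of -0.5 were recovered. Far fewer features changed there than passed in the data, so these rates may not hold for the data. Signal brightness is not used here, and the number of arrays limits the precision.

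Named genes are baxa with its probes, every member that passed, up to 3 members with the smallest p of each role, members with probes of opposite sign, and of the pathway lists those that passed and the smallest p of each; the others named were chosen after their values were seen. The members and lists were chosen with earlier results of these data known. Alternatives changed centring, scaling, quantile normalization, probe averaging, the test, array weights, the dim share, the replicate block and the arrays used. Same-numbered tumor and normal arrays did not deviate together (correlations from -0.152 to 0.122 over 10 pairs, 2 of them over 0.1), so numbers were not taken as pairs.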

Additional observations from a re-analysis of the deposited data

Results flagged for a closer look

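An array was flagged by the size of its gap to the nearest array, relative to the range of its group. In 56 sets of 10 arrays (28 genes in each group), 4 held such an array, where a rate of 1 in 20 would give 2.8. The sets share the same 20 arrays and are not independent, so this count is a description and not a test. Casp8ap2 stood at 1.32 on tumor replicate 10 and between -0.08 and 0.35 on the other tumors. Bcl2l1 stood at -0.80 on the same array and between -0.16 and 0.56 on the other tumors. Tnfrsf19 stood at 3.15 on normal replicate 10, against -0.11 to 0.92 on the other normal livers. Baxb stood at 0.98 on normal replicate 3, against -0.12 to 0.36 on the other normal livers.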

How the results depend on the processing

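Of the 3 members called, diabloa passed under every alternative run (differences from -2.60 to -1.50, adjusted p up to 0.0304), and baxa and pdcd6ip passed under each except the dim share as a covariate (0.59 and 0.88, adjusted p = 0.39 and 0.181); all 3 passed without each array in turn. With the dim share, 54 features (20.4% of them higher, beside 54.5% otherwise), 1 member and 1 pathway gene passed, against 1712, 3 and 8. The dim share and the group went largely together, and the cause was not tested. Members called numbered 5 after centring and scaling (2736 features), 5 after quantile normalization (2548 features) and 7 with array weights (3391 features). Without normal replicate 8 and tumor replicate 10 they numbered 5 (1866 features). With every probe alone, 5 of the 33 member probes passed, beside 2015 of all 16512 probes. Those 5 were both baxa probes and probes of pdcd6ip, diabloa and bcl2l13. Without 1 array each, 3 to 4 members, 1358 to 2148 features and 6 to 9 pathway genes passed. Against the reference, 8 to 14 members passed in such runs (12 with all arrays), beside 3284 to 4362 features (3943 with all arrays). The replicate block left the same 3 members (1253 features), with baxa at adjusted p = 0.0156, diabloa at 0.00363 and pdcd6ip at 0.0304; 1 of 10 tumor arrays correlated best with its own number. Signs turned only for genes that did not pass in the comparison as deposited. With the dim share these were bcl2l1 (-0.018), caspa (0.15), caspb (-0.041), mcl1b (-0.21), pdcd5 (0.15) and tnfrsf11b (0.10). Without tumor replicates 1 and 10 they were badb (-0.038), baxb (-0.18), casp8 (-0.073), caspb (-0.024) and tnfrsfa (0.089). Array weights turned badb (-0.0072) and baxb (-0.13). Without normal replicate 8 and tumor replicate 10, casp8 (-0.037), caspb (-0.039) and tnfrsfa (0.022) turned. Centring turned tnfrsfa (0.010), and 1 probe each of badb (-0.0021) and bcl2l13 (-0.29) had the opposite sign. Of these genes, mcl1b, caspa and the other bcl2l13 probe passed in some alternative runs, as given above. Without 1 array each, badb ran from -0.034 to 0.064, baxb from -0.026 to 0.22, casp8 from -0.026 to 0.15, caspb from -0.025 to 0.12 and tnfrsfa from -0.11 to 0.043.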
